A study of Canis lupus familiaris with 7 samples.

Results

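The 10 genes described here encode proteins that muscle fibers use to store oxygen, to buffer and regenerate ATP and to burn glycogen and fatty acids: *MB*, *CKM*, *CKMT2*, *PYGM*, *PFKM*, *ENO3*, *PGAM2*, *AMPD1*, *FABP3* and *PPARGC1A*. They were taken by symbol from a deposited table of 24580 canine genes, and each symbol matched 1 gene. They were selected on their known role in muscle and on their FPKM in these same samples, since earlier results, the difference between tumor and non-tumor samples among them, were known when the list was drawn up. Their levels in the 2 groups are therefore given as a description, with no test of the difference.

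RNA was sequenced from dogs with osteosarcoma (OSA), a malignant bone tumor, with 4 samples of non-tumor tissue (N1, N3, N8, N9) and 3 of OSA tumor (T1, T3, T10). The labels call the non-tumor tissue grossly non malignant bone, cut from beside the tumor at amputation or after euthanasia, and the tumor diagnosis rested on histopathology. Breed, age, sex and treatment were not in the labels used here, and no label says that N1 and T1, or N3 and T3, came from the same dog. The samples are taken as separate samples of a group. SDs describe the spread between these samples only, and the p-values treat the samples as independent, which the labels do not settle.

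Muscle carries specialised forms of many energy enzymes. Myoglobin holds oxygen near the mitochondria, creatine kinases in the cytosol and the mitochondria pass high-energy phosphate between ATP and creatine, and muscle glycogen phosphorylase starts the release of sugar phosphate that feeds glycolysis. Slow fibers rely more on mitochondria and fatty acids, and fast fibers rely more on glycogen and creatine phosphate.

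Values are in FPKM, fragments scaled to transcript length and to the number of mapped fragments, so that levels of different genes can be set side by side. The FPKM of a sample summed to between 539648 and 1752340 over all genes. The table holds no counts, and only depth relative to N1 could be read, from the spacing of the lowest values in a sample. 1 FPKM stood for 0.544 times as many fragments as in N1 at the least (N8) and 1.44 times at the most (T10). A value of exactly 0 in such a table can be a failed estimate. There were 66 genes that reached 500 FPKM in some sample while being listed at 0 in another.

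The label of the non-tumor group was checked against marker genes. The 21 skeletal muscle markers present in the table, such as the actin *ACTA1* and the myosin light chain *MYLPF*, summed to 63093 FPKM in N8 and 78827 FPKM in N9. The same markers summed to 1133 FPKM in N3, to 82.3 FPKM in N1 and to between 16.1 and 34.1 FPKM in the OSA tumor samples. The 8 osteoblast and osteocyte markers present summed to 115 FPKM in N8 and 359.8 FPKM in N9, to 1272 FPKM in N3 and 1509 FPKM in N1, and to between 939.6 and 3592 FPKM in the OSA tumor samples. The samples N8 and N9 thus stood apart from their label in their high muscle markers, and they had the lowest sums of bone markers. For N9 the bone markers set it less apart, and *SPP1* alone was 267 FPKM of its sum. The mean log2(FPKM + 1) of the 8 bone markers was 2.12 in N8, but 3.86 in N9 beside 3.88 in T3. *SP7*, a factor of bone-forming cells, was at 0.0833 FPKM in N8 and 0.702 FPKM in N9, but it was also low in N3 (1.26 FPKM) and T3 (0.991 FPKM), against 99.4 FPKM in N1, 104 FPKM in T1 and 7.59 FPKM in T10. In bulk tissue, fewer cells of a type and less RNA per cell cannot be told apart. The log2 fold changes of the muscle energy genes and of the pathway genes named below are therefore given with and without N8 and N9.

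*MB*, *CKMT2*, *PYGM* and *AMPD1* were at their highest in N8 and N9, lower in N3, and lower again in N1 and the OSA tumor samples. *CKM* followed that order except for a listed 0 in N9, *PFKM* and *ENO3* were high in N8 and N9 alone, *FABP3* in N9 alone, *PPARGC1A* was at 12.3 FPKM or less and *PGAM2* was listed at 0. Summed over the 10 genes, the FPKM was 56336 in N8, 19797 in N9, 688.5 in N3 and 167 in N1. The N9 sum and its share take *CKM* at its listed 0, which can be a failed estimate. They compare with N8 only if that 0 is real. The OSA tumor samples had sums of 104 (T1), 64.1 (T3) and 245 (T10). This was 3.21% of all FPKM in N8 and 1.51% in N9, but 0.0309% in N1 and between 0.00710% and 0.0421% in the OSA tumor samples. The gene that led the sum also differed. *CKM* held 62.2% of it in N8 and 65.7% in N3, and *MB* held 50.8% in N9. The lead of *MB* in N9 rests on the listed 0 of *CKM* there. *FABP3* held 67.2% of it in N1, 91.3% in T10, 75.0% in T1 and 66.1% in T3. In N8 and in N9, 7 of the 10 genes reached 100 FPKM, compared with 2 in N3, 1 in N1 and T10, and 0 in T1 and T3.

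**Figure D1:**
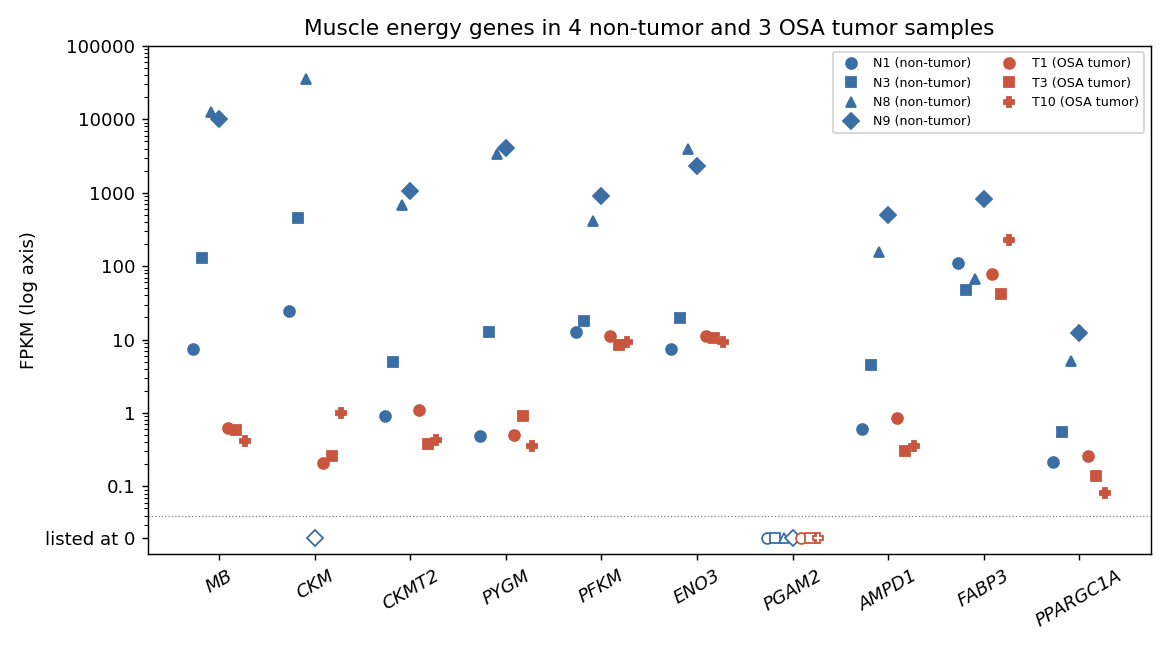
FPKM of the 10 muscle energy genes (log axis, with values listed at 0 on a separate line below it) in each of the 4 non-tumor samples (blue) and 3 OSA tumor samples (red), 1 point per sample. N8 and N9 are the highest points for most genes, N1 lies close to the OSA tumor samples for several, *CKM* is listed at 0 in N9 and *PGAM2* is listed at 0 in every sample.

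Comparisons were made on log2(FPKM + 1), a scale that understates the change of low genes, with limma across the 13507 genes whose mean FPKM was 1 or more. For genes other than the 10, a gene passed the rule when the groups differed by a fold of 2 or more and the unadjusted p was under 0.05. Of the 10 genes, 9 entered the fit and all 9 had a negative log2 fold change, lower in OSA tumor, with a median of -4.27. Over all genes tested the median was -0.02 and 51.4% were negative. Because the 10 genes were chosen with this contrast in view, the rule was not applied to them and nothing beyond the description is read from these values. Over all genes tested, 6.86% passed the rule in either direction, 3.58% with lower and 3.28% with higher values in OSA tumor. No gene in the table reached an adjusted p under 0.05 by limma (0 of 13507; 927 had an unadjusted p under 0.05), and the smallest adjusted p was 0.693. Without N8 and N9 the median of the 9 log2 fold changes was -0.998.

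*MB* (ENSCAFG00000001705, chromosome 10, 28574068 to 28583590 in CanFam3.1) encodes myoglobin, the oxygen-binding heme protein of muscle. It was at 12655 FPKM in N8, 10049 FPKM in N9, 129 FPKM in N3 and 7.47 FPKM in N1, and at 0.625 FPKM in T1, 0.584 FPKM in T3 and 0.413 FPKM in T10. The lowest non-tumor sample thus lay above the highest OSA tumor sample, but N1 was nearer to the OSA tumor samples than to N3. The group means were 5710.02 ± 6601 FPKM (SD, n = 4) and 0.541 ± 0.112 FPKM (SD, n = 3). The log2 fold change was -8.64 (SE 2.25), the largest in size among the 9 fitted when all 7 samples were used, and -4.43 without N8 and N9. Groups that did not overlap were seen for 2 of the 10 genes, *MB* and *PFKM*. Among all genes tested this was so for 5.85% in either direction and for 2.81% with lower values in OSA tumor.

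*CKM* (ENSCAFG00000004507, chromosome 1, within 110209746 to 110328209) encodes the cytosolic creatine kinase of muscle. It was at 35044 FPKM in N8, 452 FPKM in N3 and 24.7 FPKM in N1, but was listed at exactly 0 in N9. In the OSA tumor samples it was at 0.211 FPKM in T1, 0.257 FPKM in T3 and 0.995 FPKM in T10. In N8 it was the most abundant of the 10 genes, and every listed value above 0 in the non-tumor group lay above every OSA tumor value. The 0 in N9 stood beside 1069 FPKM of the mitochondrial creatine kinase *CKMT2*, 10049 FPKM of *MB* and 11146 FPKM of *ACTA1* in the same sample. The deposited group value for non-tumor was 0 as well, and that for OSA tumor was 0.467 FPKM. The interval listed for *CKM* spans 118464 bases and is shared by 4 listed genes. The log2 fold change was -6.62 (SE 2.80) with the 0 taken as listed, -9.00 without N9 and -3.97 without N8, so that the value turned on how these libraries were treated. Without both, it was -6.22.

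*CKMT2* (ENSCAFG00000008707, chromosome 3, within 25985315 to 26286819, an interval of 3 listed genes) encodes the sarcomeric mitochondrial creatine kinase. It was at 690.3 FPKM in N8, 1069 FPKM in N9, 4.98 FPKM in N3 and 0.904 FPKM in N1, compared with 1.09 FPKM in T1, 0.381 FPKM in T3 and 0.428 FPKM in T10. The groups overlapped, with N1 between T1 and T10. The means were 441 ± 529 FPKM (SD, n = 4) and 0.634 ± 0.398 FPKM (SD, n = 3), with a log2 fold change of -5.07 (SE 2.06) that came to -1.07 without N8 and N9.

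*PYGM* (ENSCAFG00000014281, chromosome 18, 52397815 to 52410459) encodes muscle glycogen phosphorylase, the enzyme missing in McArdle disease. Its level was 3402 FPKM in N8, 4104 FPKM in N9, 12.8 FPKM in N3 and 0.488 FPKM in N1, and 0.4997 FPKM in T1, 0.912 FPKM in T3 and 0.351 FPKM in T10. N1 lay inside the range of the OSA tumor samples, and N3 lay above it. The group means were 1879.95 ± 2182 FPKM (SD, n = 4) and 0.588 ± 0.291 FPKM (SD, n = 3), and the log2 fold change of -6.37 (SE 2.52) came to -1.53 without N8 and N9.

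*PFKM* (ENSCAFG00000009035, chromosome 27, 6620300 to 6662614) encodes the muscle form of phosphofructokinase, which commits sugar to glycolysis, and its inherited loss is known in dogs. It was at 412 FPKM in N8, 900.1 FPKM in N9, 17.7 FPKM in N3 and 12.8 FPKM in N1, and at 11.2 FPKM in T1, 8.48 FPKM in T3 and 9.19 FPKM in T10. The groups did not overlap, but N1 and T1 were close neighbours, and the 5 samples other than N8 and N9 all lay between 8.48 and 17.7 FPKM. The means were 336 ± 420.3 FPKM (SD, n = 4) and 9.61 ± 1.39 FPKM (SD, n = 3). The log2 fold change of -3.23 (SE 1.39) came to -0.61 without N8 and N9.

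*ENO3* (ENSCAFG00000015802, chromosome 5, 31662115 to 31666140) encodes beta-enolase, the muscle form of a late glycolytic enzyme. It was at 3904 FPKM in N8, 2348 FPKM in N9, 19.7 FPKM in N3 and 7.39 FPKM in N1, and at 11.2 FPKM in T1, 10.6 FPKM in T3 and 9.41 FPKM in T10. N1 was the lowest of the 7 samples, below each OSA tumor sample, and the tumor values lay close together. With means of 1569.7 ± 1906 FPKM (SD, n = 4) and 10.4 ± 0.913 FPKM (SD, n = 3), the log2 fold change was -4.13 (SE 2.02). It was -0.21 without N8 and N9. *PGAM2* (ENSCAFG00000002877, on an unplaced scaffold), the muscle phosphoglycerate mutase that acts just before enolase, was listed at 0 in all 7 samples, N8 and N9 included, and could not be compared. The rows for 2 other glycolytic enzymes that cells generally use, *ENO1* and *PGK1*, were listed at 0 in all 7 samples too. Those rows cover only 861 and 710 bases, against 13739 for *PGAM2*, and were not read as the levels of those enzymes.

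*AMPD1* (ENSCAFG00000009521, chromosome 17, 52377417 to 52399737) encodes muscle AMP deaminase, which removes AMP when ATP is used quickly. It was at 156 FPKM in N8, 491 FPKM in N9, 4.50 FPKM in N3 and 0.599 FPKM in N1, and at 0.842 FPKM in T1, 0.308 FPKM in T3 and 0.359 FPKM in T10. The groups overlapped through N1 and T1 alone. The means were 163 ± 230.3 FPKM (SD, n = 4) and 0.503 ± 0.295 FPKM (SD, n = 3), and the log2 fold change was -4.27 (SE 1.74), or -0.998 without N8 and N9.

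*FABP3* (ENSCAFG00000011117, chromosome 2, 69651223 to 69658170) encodes the fatty acid-binding protein of heart and skeletal muscle, and it was the exception among the 10 genes. It was at 823 FPKM in N9 but at 67.5 FPKM in N8, 47.3 FPKM in N3 and 112 FPKM in N1, and in the OSA tumor samples at 77.6 FPKM in T1, 42.4 FPKM in T3 and 224 FPKM in T10. The groups overlapped throughout: T10 was above every non-tumor sample other than N9, and N8 was below T1. Its means were 263 ± 375 FPKM (SD, n = 4) and 115 ± 96.3 FPKM (SD, n = 3). The log2 fold change of -0.53 (SE 0.99) had no stable sign, being 0.35 without N9, 0.0062 without T3 and 0.31 without both N8 and N9.

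*PPARGC1A* (ENSCAFG00000016519, chromosome 3, 86183098 to 86285748) encodes PGC-1 alpha, a coactivator that raises mitochondrial and oxidative genes. As a regulator it was far less abundant, at 5.10 FPKM in N8, 12.3 FPKM in N9, 0.544 FPKM in N3 and 0.213 FPKM in N1, and at 0.263 FPKM in T1, 0.137 FPKM in T3 and 0.0820 FPKM in T10. Only N1 lay within the OSA tumor range. The means were 4.53 ± 5.62 FPKM (SD, n = 4) and 0.161 ± 0.0930 FPKM (SD, n = 3). The log2 fold change was -1.60 (SE 0.84), and it was -0.24 without N8 and N9.

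The OSA tumor samples were alike in most of these genes. *PFKM* and *ENO3* stayed between 8.48 and 11.2 FPKM in all 3, and *MB*, *CKMT2*, *PYGM*, *AMPD1* and *PPARGC1A* were at or under about 1 FPKM in each. T10 had the highest *CKM* and *FABP3* of the tumors, and T3 the highest *PYGM*. The SD of *FABP3* in OSA tumor (96.3 FPKM) was close in size to its mean (115 FPKM), unlike that of *ENO3* (0.913 FPKM for a mean of 10.4 FPKM).

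Several of these enzymes have relatives outside muscle, which allowed the share of the muscle form to be read within each sample, a measure that does not depend on the scaling between libraries. In N8 and N9 the muscle form held 88.4% or more of the summed enzyme family wherever it was listed above 0. For enolase this sum lacked the general form *ENO1*, which had no usable row. The regulator *PPARGC1A* held less of its pair. For glycogen phosphorylase, *PYGM* held 98.0% of the summed FPKM of *PYGM*, the liver form *PYGL* and the brain form *PYGB* in N8 and 99.5% in N9. It held 10.2% in N3, 0.856% in N1 and between 0.788% and 2.58% in the OSA tumor samples. For AMP deaminase, *AMPD1* held 88.4% of the sum with *AMPD2* and *AMPD3* in N8, 92.0% in N9, 17.2% in N3, 1.29% in N1 and between 1.70% and 3.35% in OSA tumor. In both families the forms that are not specific to muscle thus held most of the sum in N1 and the OSA tumor samples, although the total phosphorylase level in N1 (57.1 FPKM) was not low beside that of T1 (52.6 FPKM), T3 (35.4 FPKM) and T10 (44.5 FPKM).

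In the phosphofructokinase and creatine kinase families N3 again lay between N8 and N1, while N1 lay among the OSA tumor samples for *PFKM* and above them for *CKM*. *PFKM* held 93.2% of its family, beside the liver form *PFKL* and the platelet form *PFKP*, in N8, 99.0% in N9, 34.8% in N3, 15.5% in N1 and between 8.92% and 30.2% in OSA tumor. *CKM* held 99.96% of the sum with the brain form *CKB* in N8, 93.4% in N3 and 8.32% in N1, and between 0.0418% and 4.01% in OSA tumor, while no share can be read in N9. *CKB* was at 505 FPKM in T1 and 272 FPKM in N1, and between 10.4 and 32.1 FPKM in the other 5 samples. Its groups overlapped (log2 fold change 1.05, SE 1.32, limma unadjusted p = 0.447, exact permutation p = 0.514).

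Enolase and the PGC-1 coactivators were less uneven. The row for *ENO1*, the general enolase, covers 861 bases and was listed at 0 in all samples, so only *ENO2*, the neuronal form, could be set beside *ENO3*. *ENO3* held 99.96% of the pair in N8, 99.9% in N9, 89.4% in N3 and in N1, and 87.0% in T1, 58.6% in T10 and 32.5% in T3. *PPARGC1A* held 62.1% of the sum with *PPARGC1B* in N8, 75.1% in N9, 57.2% in N3 and 8.12% in N1, against 5.98% to 14.9% in OSA tumor. By this share N3 thus lay nearer to N8 than to N1 for *PPARGC1A* and *CKM*, and nearer to N1 for *PYGM* and *AMPD1*. The *PPARGC1A* pair summed to only 0.952 FPKM in N3, a level at which such a share is poorly determined. No share was computed for *CKMT2* and *PGAM2*, because no relative of theirs had a usable row.

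**Figure D2:**
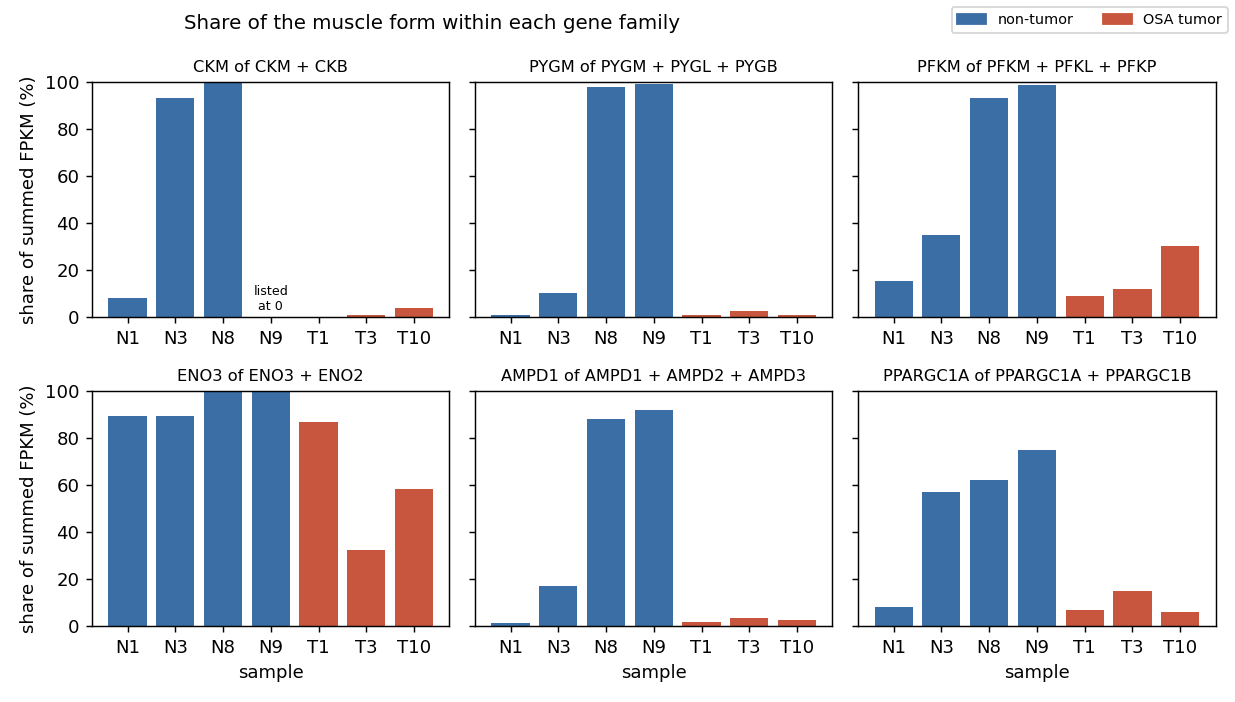
Share (%) of the muscle form in the summed FPKM of its gene family, 1 bar per sample and 1 panel per family. Blue bars are the 4 non-tumor samples and red bars the 3 OSA tumor samples. The enolase panel holds *ENO3* and *ENO2* only. The *PYGM* bar is near 100% in N8 and N9 and at 10.2% or less in the other 5 samples, and the *CKM* bar is missing in N9, where the gene is listed at 0.

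Levels of the members within the non-tumor group were compared with sarcomere genes of slow and fast fibers, a split that was chosen after the values were seen. Fast-fiber genes such as *TNNT3* and *TNNC2* were far higher in N8 than in N3 and near each other in N8 and N9, while slow-fiber genes such as *MYH7* and *TNNT1* had smaller ratios of N8 to N3 and were higher in N9 than in N8. For the fast genes, the level in N8 was 146 to 671 times that in N3 (7 genes, median 278), and the level in N9 was 0.569 to 1.26 times that in N8 (7 genes, median 1.03). For the slow genes the first ratio was 4.32 to 15.7 (6 genes, median 13.2) and the second 2.11 to 5.91 (6 genes, median 2.68). The fast myosin *MYH1* was listed at 0 in N9 beside 2028 FPKM in N8, as *CKM* was.

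The muscle energy genes also differed among themselves in these ratios. *PYGM* and *ENO3*, of glycogen breakdown and glycolysis, had ratios of N8 to N3 of 266 and 198, within the range of the fast-fiber genes, and ratios of N9 to N8 of 1.21 and 0.601. *MB* and *CKMT2* had ratios of N8 to N3 of 98.2 and 139, under that range, and ratios of N9 to N8 of 0.794 and 1.55. *CKM* had a ratio of N8 to N3 of 77.5, between the ranges of the fast and slow genes, and no ratio of N9 to N8, since it was listed at 0 in N9. *PFKM* and *AMPD1* also lay between those ranges, at 23.3 and 34.6 times the N3 level in N8, and were higher again in N9, by ratios of 2.18 and 3.15. *PPARGC1A*, with ratios of 9.37 and 2.40, lay within the range of the slow genes in both. Its first ratio rests on 0.544 FPKM in N3, a level that ranks samples poorly. *FABP3* lay outside both ranges, at only 1.43 times the N3 level in N8 but 12.2 times the N8 level in N9. From N1 to N3 the ratios were 17.2 for *MB*, 18.3 for *CKM* and 26.2 for *PYGM*, but 1.38 for *PFKM* and 0.422 for *FABP3*. These are ratios of single samples with no replicate, and no test was made of them.

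Set against *ACTA1*, the main actin of skeletal muscle, *MB* was steady where muscle RNA was high. *MB* was at 91.0% of the *ACTA1* level in N8 and 90.2% in N9, at 50.6% in N3 and 37.3% in N1. *CKM* was at 252% of *ACTA1* in N8, 177% in N3 and 123% in N1. *PYGM* moved more, from 24.5% in N8 and 36.8% in N9 to 5.03% in N3 and 2.44% in N1. *PFKM* was at 2.96% of *ACTA1* in N8, 8.08% in N9 and 6.94% in N3, but at 63.9% in N1. The *PFKM* level of N1 was close to that of the OSA tumor samples, where *ACTA1* was between 0.497 and 2.41 FPKM. The muscle marker list, and its sums given above, moved with *MB*, *CKMT2*, *PYGM* and *AMPD1* across the non-tumor samples, with N8 and N9 highest, then N3, then N1, and with *CKM* in the samples other than N9. Of its 18 tested genes, 14 passed the rule with lower values in OSA tumor, beside 3.58% of all genes tested, and 8 did so without N8 and N9, beside 0.763% of all genes. The part of muscle tissue in the differences of the energy genes was not tested.

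Other cell types were checked in the same way. The heart markers *NPPA* and *NPPB* were at or near 0 in every sample (at most 0.0782 FPKM for *NPPA* and 0 for *NPPB*), while *TNNT2*, the cardiac troponin T, was at 17.7 FPKM in N9, at 1.72 to 4.85 FPKM in the other non-tumor samples and at 37.5 FPKM in T3, and *TNNI3* was between 0.410 and 2.99 FPKM throughout. Of these cardiac markers 2 were tested, and 0 passed by limma, with 0 at an unadjusted p under 0.05. N9 had the highest *TNNT2* and the highest *FABP3* of the non-tumor samples, but T3, with the highest *TNNT2* of all 7, had the lowest *FABP3* (42.4 FPKM). The 5 erythroid markers present summed to 855 FPKM in N3 and 1134 FPKM in N8, but to 64.1 FPKM in N9 and 5.24 FPKM in N1, an order unlike that of the muscle energy genes. In OSA tumor they summed to between 2.79 and 24.8 FPKM, and 4 of 5 passed the rule with lower values (3.58% of all genes), against 0 without N8 and N9 (0.763% of all genes). The 4 adipocyte markers present summed to between 4.03 and 107 FPKM in the non-tumor samples and between 0.956 and 2.53 FPKM in OSA tumor. Most of the sum in N8 and N9 was *PLIN4* (52.9 and 86.6 FPKM), whose interval is shared by 7 listed genes, while *PLIN1* was at 19.6 FPKM in N8, 6.69 FPKM in N3, 5.14 FPKM in N9 and 1.28 FPKM in N1. Of 3 tested, 3 passed with lower values (3.58% of all genes), and 2 without N8 and N9 (0.763% of all genes). Their part in the levels of *FABP3* and *PPARGC1A* was not tested.

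The wider pathways around the 10 genes were then read from lists of other genes, again drawn up with earlier results known. Of 16 tested genes of glycogen handling, 3 fell and 0 rose in OSA tumor, where 3.58% of all genes tested fell and 3.28% rose. All 16 had negative log2 fold changes, beside 51.4% of all genes tested. The median of the 16 was -1.77, or -0.37 without N8 and N9, where 4 of the 16 signs turned. *GYS1*, the muscle glycogen synthase, was at 15.1, 14.5, 121 and 90.5 FPKM in N1, N3, N8 and N9 and at 13.6, 2.87 and 5.78 FPKM in T1, T3 and T10. The groups did not overlap, with N3 just above T1 (log2 fold change -2.49, SE 0.86, limma unadjusted p = 0.0171, exact permutation p = 0.114, and -1.12 without N8 and N9). *PHKG1*, the catalytic subunit of muscle phosphorylase kinase, which switches *PYGM* protein on, was at 0.770, 3.45, 124 and 257 FPKM in the same non-tumor samples and between 0.224 and 0.686 FPKM in OSA tumor. Its log2 fold change was -3.98 (SE 1.58, limma unadjusted p = 0.0321, exact permutation p = 0.171), or -0.98 without N8 and N9, and among the non-tumor samples its level, like that of *PYGM*, was lowest in N1 and highest in N9. *PPP1R3B*, which targets protein phosphatase to glycogen, was at 4.70, 39.6, 24.8 and 77.8 FPKM in N1, N3, N8 and N9 and between 1.61 and 10.4 FPKM in OSA tumor (log2 fold change -2.08, SE 0.89, limma unadjusted p = 0.0434, exact permutation p = 0.143, and -1.30 without N8 and N9). The number that passed was 0 without N8, T3 or both N8 and N9, 1 without N9 or T10, 6 without N3 and 11 without N1.

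For creatine supply and adenine nucleotides, 0 of 10 tested genes passed by limma and 0 had an unadjusted p under 0.05. Negative log2 fold changes were seen in 8, beside 51.4% of all genes tested. The median of the list was -1.91, or -0.096 without N8 and N9, where 1 sign turned. The 3 with the smallest p were *GAMT*, which makes creatine, *ADSSL1*, the muscle form of an enzyme that remakes AMP in the cycle *AMPD1* opens, and *SLC25A4*, the ATP/ADP carrier of muscle mitochondria. *GAMT* was at 420.5 FPKM in N8 and 144 FPKM in N9, but at 34.3 FPKM in T1, above N1 (10.1 FPKM) and N3 (18.7 FPKM), and did not pass (log2 fold change -2.89, SE 1.31, limma unadjusted p = 0.0533, and -0.86 without N8 and N9). *ADSSL1* was at 221 and 237 FPKM in N8 and N9 and at 0.120 to 3.79 FPKM in the other 5 samples (log2 fold change -3.35, SE 1.76, limma unadjusted p = 0.0879, and -0.0066 without N8 and N9). *SLC25A4* was at 1603 and 3819 FPKM in N8 and N9 and at 20.0 to 96.6 FPKM elsewhere (log2 fold change -2.74, SE 1.51, limma unadjusted p = 0.102, and -0.015 without N8 and N9). In *ADSSL1* and *SLC25A4*, as in *AMPD1* and *CKMT2*, N8 and N9 lay far above and N1 within the range of the tumors. N3 lay within that range too (0.965 and 64.3 FPKM), whereas for *AMPD1* and *CKMT2* it lay above every tumor. The count was 5 without N1 or N3, 1 without T1 and 0 without both N8 and N9.

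Glycolysis outside the 10 genes had a smaller median difference. Of 12 tested genes 0 passed by limma and 0 had an unadjusted p under 0.05. Their log2 fold changes were negative in 10, beside 51.4% of all genes tested, and positive in 2. The median of the list was -0.48. Without N8 and N9 the median was 0.21, so that its direction turned, as did that of 8 of the 12 genes. *ALDOC*, an aldolase found mainly in brain, was at 3.05 to 11.4 FPKM in non-tumor and 9.34 to 20.8 FPKM in OSA tumor (log2 fold change 1.22, SE 0.54, limma unadjusted p = 0.0508, and 0.65 without N8 and N9). *PFKFB1*, which makes the activator of phosphofructokinase, was at 44.0 FPKM in N9, 12.7 FPKM in N8 and 0.237 FPKM in N1, and at 0.0386 FPKM or less in OSA tumor (log2 fold change -2.51, SE 1.18, limma unadjusted p = 0.0608, and -0.41 without N8 and N9). *BPGM*, a red cell enzyme related to *PGAM2*, was highest in N8 (82.9 FPKM) and N3 (29.7 FPKM), the samples with the highest erythroid markers, whose part in it was not tested (log2 fold change -1.95, SE 0.92, limma unadjusted p = 0.0614, and -0.92 without N8 and N9). The count of genes that passed was 4 without N1 (3 lower and 1 higher in OSA tumor), 1 without N3 (lower), 1 without T10 (higher) and 0 without both N8 and N9.

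Among genes of fatty acid use and partners of *PPARGC1A*, 4 of 19 fell and 0 rose, where 3.58% of all genes tested fell and 3.28% rose. There were 18 negative log2 fold changes, beside 51.4% over all genes tested. The median of the list was -1.42, or -0.39 without N8 and N9, where 4 signs turned. *PDK4* holds back the oxidation of pyruvate in the mitochondria when fat is burned. It was at 10.1, 126, 950.4 and 1374 FPKM in N1, N3, N8 and N9 and at 1.87, 17.7 and 13.4 FPKM in T1, T3 and T10. N1 lay below T3 and T10, and the other non-tumor samples lay above all tumors (log2 fold change -4.50, SE 1.53, limma unadjusted p = 0.0158, exact permutation p = 0.114, and -2.03 without N8 and N9). *SLC25A20*, the carnitine carrier of mitochondria, was the narrowest of the 4, at 16.1 to 62.2 FPKM in non-tumor and 7.30 to 12.6 FPKM in OSA tumor with no overlap (log2 fold change -1.42, SE 0.56, limma unadjusted p = 0.0312, exact permutation p = 0.0571, and -0.71 without N8 and N9). *LPL*, the lipase that frees fatty acids from blood lipids, fell from 25.3 to 174 FPKM in non-tumor to 8.55 to 43.6 FPKM in OSA tumor (log2 fold change -1.89, SE 0.78, limma unadjusted p = 0.0375, exact permutation p = 0.114, and -1.52 without N8 and N9). *ESRRA*, a nuclear receptor through which *PPARGC1A* acts, had a log2 fold change of -2.36 (SE 0.87, limma unadjusted p = 0.0235, exact permutation p = 0.143), or -0.95 without N8 and N9, but its interval is shared by 13 listed genes. The smallest p this exact permutation test can give is 0.0286. The number that passed was 8 without N1, 0 without N8 and 0 without both N8 and N9, and 2 without N9, T1, T3 or T10.

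Of 11 tested relatives of the 10 genes, 1 rose and 1 fell, where 3.28% of all genes tested rose and 3.58% fell, and the median log2 fold change was 0.03, or -0.42 without N8 and N9, where the sign turned. A single gene each way is near that background and is no result about the relatives as a group. *ENO2* rose in OSA tumor, where it was at 1.68 FPKM in T1, 22.1 FPKM in T3 and 6.65 FPKM in T10, against 1.41 FPKM in N8, 1.19 FPKM in N9, 2.34 FPKM in N3 and 0.873 FPKM in N1. T1 lay within the non-tumor range (log2 fold change 1.70, SE 0.71, limma unadjusted p = 0.0397, exact permutation p = 0.0571, and 1.64 without N8 and N9). *AMPD3*, the erythrocyte form of AMP deaminase, fell. It was at 36.4 FPKM in N9, 6.43 FPKM in N8, 6.13 FPKM in N3 and 0.221 FPKM in N1, and between 0.206 and 0.230 FPKM in OSA tumor (log2 fold change -2.52, SE 0.97, limma unadjusted p = 0.0283, exact permutation p = 0.114, and -1.27 without N8 and N9). *ENO2* did not pass without N1, N8, N9, T3 or T10, and *AMPD3* did not pass without N3, N8, N9, T1, T3 or T10, and neither passed without both N8 and N9. The other 9 tested relatives did not pass, with exact permutation p-values between 0.286 and 0.971: *PYGL* had a log2 fold change of -1.41 (limma unadjusted p = 0.173), *PYGB* 0.03 (p = 0.960), *PFKL* 0.85 (p = 0.311), *PFKP* 0.84 (p = 0.313), *AMPD2* 0.16 (p = 0.839), *PPARGC1B* -0.27 (p = 0.670), *PPRC1* -0.25 (p = 0.721) and the globin *CYGB* -0.30 (p = 0.722), beside *CKB* above. *PFKL* passed without T10, at 1.77. Without N8 and N9, *PYGL* was -1.88, *PFKL* 0.40, *PPRC1* -0.55 and *CYGB* -0.98, and the 5 relatives whose sign turned are given at the end. *FABP7* and the globin *NGB* were too low to be tested. The *PGAM1* row covers 714 bases and was listed at 0 in every sample but N9 (0.487 FPKM). It was not tested either, and it was not read as the level of that enzyme.

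**Figure D3:**
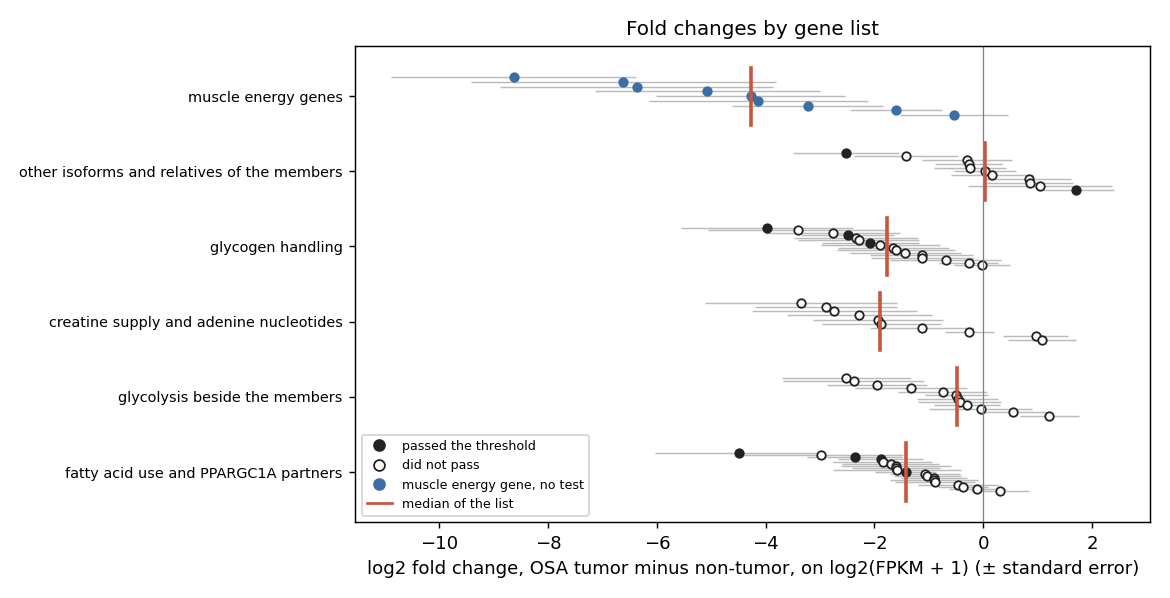
Log2 fold change, OSA tumor minus non-tumor on log2(FPKM + 1), with its standard error from limma, 1 point per tested gene, for the muscle energy genes and the 5 pathway lists. Black filled points of the pathway lists passed both limits (a fold of 2 or more, unadjusted p under 0.05), blue points are the muscle energy genes, to which no test was applied, and red bars mark the median of a list, which is -4.27 for the muscle energy genes and between -1.91 and 0.03 for the other lists.

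The genes whose profile over the 7 samples lay nearest to the mean profile of the 9 tested members were *SCN4B*, *CAV3*, *MYF6*, *CESDD1* and *HHATL*, taken on the log2 scale after each profile was centred on its own mean. Their root mean square difference from it was 0.265, 0.332, 0.401, 0.412 and 0.514. Each of the 5 was between 89.7 and 305 FPKM in N8 and N9 and at 4.33 FPKM or less in the other samples. Of the members themselves *AMPD1* (0.77), *ENO3* (0.86) and *PFKM* (0.91) lay nearest to their common profile, and *FABP3* (2.91) and *CKM* (4.40), with its 0 in N9, lay farthest.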

How the data were processed

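RNAseq of 4 non-tumor and 3 OSA tumor samples was analysed from a deposited table of FPKM per gene and sample, which the authors made with TopHat and Cuffdiff on CanFam3.1. The submitters' processing notes also name CASAVA, Trim Galore, FastQC and cutadapt, and versions were not given in the sources used here. Libraries were stranded and paired-end, and whether counting used strand was not given. A second deposited table holds group FPKM, fold changes, a test statistic, p-values and q-values from the authors' own comparison. From it, intervals were taken (1 was added to starts counted from 0), and group FPKM only where named, and the comparison columns were not used. There were 0 per-sample columns left unused. Total counts and sequences were not analysed here.

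All FPKM were used as listed, zeros included. Tumor was compared with non-tumor on log2(FPKM + 1) in genes whose mean FPKM was 1 or more, with the moderated test of limma 3.58.1 (R 4.3.3), letting the prior variance follow the mean level. A gene passed with a log2 fold change of 1 or more in size and an unadjusted p under 0.05. Benjamini-Hochberg adjustment ran over all 13507 genes. The fit was first tested on simulated data. Exact permutation tests were two-sided, over the 35 ways to give 3 of the 7 samples the tumor label (Python 3.11.15, numpy 2.4.6, scipy 1.17.1). Figures were drawn with matplotlib 3.10.9.

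The members and all gene lists were chosen with earlier results of these data known. Genes named were the 10 members, their relatives, in each other pathway list the genes that passed or, with fewer than 3, the 3 with the smallest p, the markers that define a type, and the 5 genes nearest in profile. Slow- and fast-fiber genes were chosen after their values were seen. Pseudocounts of 0.1 and 0.01, other filters, scalings and variance models, the sample number as a block, and leaving out each sample were tried, and the fit without both N8 and N9 was added after seeing the data. The number shared by N1 and T1, and by N3 and T3, was not taken to pair samples: the non-tumor tissue is described as matched, but neither the labels nor the study's methods state that a number marks 1 dog.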

Additional observations from a re-analysis of the deposited data

Results flagged for a closer look

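In 4 samples of a group, a value was flagged where its gap to the nearest other sample, divided by the whole range, passed Dixon's 95% limit. The 9 tested members and 11 tested relatives were checked in the non-tumor group, on untransformed FPKM. Chance flags about 1 in 20 only where values follow a normal distribution, and the rate for skewed FPKM is not known. The members were chosen with these values known, and N8 and N9 already stood apart in their muscle markers, so the flags only describe which samples were far from the others. *CKM* in N8 stood far above the others (35044 FPKM against 0 to 452 FPKM), and *FABP3* in N9 likewise (823 FPKM against 47.3 to 112 FPKM). The *CKM* flag takes the 0 listed in N9 as real, although it can be a failed estimate. In N1, 3 relatives were flagged. *CKB* was at 272 FPKM against 10.4 to 32.1 FPKM, *PPRC1* at 19.2 FPKM against 4.42 to 6.94 FPKM, and *CYGB* at 24.2 FPKM against 2.96 to 5.02 FPKM. In each of these 3 genes the OSA tumor sample T1 was the highest tumor, at 505 FPKM for *CKB*, 15.4 FPKM for *PPRC1* and 17.4 FPKM for *CYGB*.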

How the results depend on the processing

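The median log2 fold change of the members stayed negative under every alternative run, from -5.66 to -2.95 with 1 sample left out, -3.10 with the sample number as a random replicate block and -0.93 with it as a fixed block over N1, N3, T1 and T3. The number of all genes that passed (926) was 319 (without N8) to 1997 (without N1) with 1 sample left out, 1857 with sample weights, 1062 with the random block, 241 with the fixed block and 184 without N8 and N9. For glycogen handling (3) it was 5 with pseudocounts of 0.1 and 0.01, 1 without a filter, 7 with the same sum in each sample or with sample weights, 0 with the fixed block and 0 to 11 with 1 sample left out. For creatine and adenine nucleotides (0) it was 1 with either pseudocount, with the other filter or with sample weights, 3 with the same sum and 0 to 5 with 1 sample left out. For glycolysis (0) it was 1 (lower in OSA tumor) with either pseudocount or the same sum, 1 (higher) with the median ratio, quantiles or the random block, 3 (2 lower, 1 higher) with sample weights and 0 to 4 with 1 sample left out. For fatty acid use (4) it was 8 with sample weights, 1 with the fixed block, 0 without N8 and N9 and 0 to 8 with 1 sample left out. For the relatives (2) it was 1 without a filter, 0 with the fixed block, 0 without N8 and N9 and 0 to 1 with 1 sample left out. Scaling to the same sum moved the median of all genes from -0.02 to 0.12. The background of all genes moved with the scaling too. It was 443 higher and 483 lower in the main fit, 271 and 493 with the same sum, and 519 and 389 with quantiles.

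Without N8 and N9 the sign of 22 of 68 tested pathway genes turned. Signs under the other alternatives were followed for single genes in members and relatives alone, and *FABP3* came to 0.063 with sample weights. With sample weights *PYGB* was -0.023. With the random block *PYGB* was -0.12 and *AMPD2* -0.027, and with the fixed block *PYGB* was -0.42, *AMPD2* -0.34 and *PPARGC1B* 0.36. Without N8 and N9, *CKB* was -0.42, *PYGB* -0.23, *PFKP* -0.046, *AMPD2* -0.55 and *PPARGC1B* 0.26. With 1 sample left out, *CKB* ran from -0.37 to 2.04, *PYGB* from -0.26 to 0.52, *AMPD2* from -0.54 to 0.64, *PPARGC1B* from -0.66 to 0.00996, *PPRC1* from -0.84 to 0.17 and *CYGB* from -1.08 to 0.33. The cause was not tested. Deviations from the group means correlated at 0.42 between N1 and T1 and at 0.21 between N3 and T3, over genes, and these are the only 2 shared numbers. *PPARGC1A*, at low FPKM, came to -3.43 with a pseudocount of 0.01. The depth behind low values is unknown in fragments, so values under about 1 FPKM rank samples poorly.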
